A study of Rattus norvegicus with 16 samples.

Results

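Solute carriers were measured in rat aorta at 4 ages on 65 probe sets of 53 genes, of 155 such probe sets of 104 genes on an array that names 4736 genes. They were chosen among probe sets with 1 gene symbol that starts with Slc, leaving out the glucose transporters (Slc2a), the bicarbonate transporters (Slc4a) and the mitochondrial carriers (Slc25a), which have 33 probe sets. A probe set was kept where its mean log2(signal + 16) over all 16 arrays was 8 or more, so the level over all ages chose the members and the difference between ages did not. Just inside this limit were Slc34a1 at 8.03, Slc23a3 at 8.04 and Slc1a1 at 8.07. Just outside it were Slc10a2 at 7.74, Slc15a2 at 7.72 and a probe set of Slc1a3 at 7.71. Of the members, 12 had a mean below 8 at 1 or more ages. All 65 were bright enough to be tested. Of the 53 genes 13 also had probe sets below the limit, and log2 changes of these genes are given on member probe sets only. Of the 90 probe sets below the limit 15 were tested, and with limma 0 of these passed in any comparison, with 1 at an unadjusted p under 0.05 at 28 against 3 months.

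Gene expression was measured on 16 Affymetrix arrays, 1 per rat, with 4 rats each at 3, 6, 15 and 28 months of age. Each array held RNA of a piece of descending thoracic aorta 1 cm long, and no treatment or genotype is named in the sources used here; strain and sex are not given there either. The 3-month rats served as the young group. A piece of aorta holds smooth muscle, endothelium, fibroblasts and whatever fat was attached to it, and in such bulk samples fewer cells of a type and less RNA per cell cannot be told apart. All 6 smooth muscle markers that were measured had a log2 level of at least 10.72 on every array. This level does not rank smooth muscle against the other cell types.

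Solute carriers are membrane proteins that move small molecules across the cell surface or the membranes of organelles. Some let a solute run down its own gradient, and others couple it to sodium, chloride or protons, so that the sodium pump pays for the uptake. In the vessel wall they are known for taking up amines and nucleosides that act on smooth muscle, for setting cell volume and chloride, and for bringing fuels to muscle and fat cells. The 65 probe sets were grouped by whole families, so a group can hold single carriers of other solutes, such as the vitamin carrier Slc5a6 among the fuels. Amino acids, peptides and transmitters had 19 probe sets of 16 genes, and nucleosides, vitamins, urea and organic ions had 18 of 15 genes. Fuels, fatty acids and carboxylates had 10 of 8 genes, cations, anions and phosphate 8 of 7 genes, metals 5 of 4 genes, and organelle membranes 5 of 3 genes. For 41 genes there was 1 member probe set and for 12 genes there were 2, which are called the brighter and the dimmer by their mean signal. Signals of different probe sets do not rank transcripts, so levels are compared only within a probe set.

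RNA of adipocyte markers varied widely between arrays, with lower means at the older ages, and changes from a fit with their level as a covariate are given beside the main ones. The fat score, the mean log2 level of 19 adipocyte markers, was 12.88 ± 0.54 (SD, n = 4) in the 3-month rats and 13.00 ± 0.74 in the 6-month rats. It was 11.68 ± 1.75 in the 15-month rats and 11.23 ± 0.76 in the oldest. At 15 months it was 13.30 and 13.08 on replicates 1 and 2 and 10.32 and 10.03 on replicates 3 and 4. Their summed signal ranged from 161135 to 375011 in the 3-month rats and from 146257 to 473975 in the 6-month rats. In the 15-month rats it ranged from 36486 to 372477, and in the oldest from 48326 to 141207. All 19 markers were lower at 28 than at 3 months (median log2 change -1.59), from -2.66 for Gpd1 to -0.0398 (SE 0.20) for Lep, which hardly changed. No array had a marker at 0. None of the 19 passed the limma test used below (12 at an unadjusted p under 0.05), and 9 did with the hybridisation runs as a block. Beside this and the lists below, 22.4% of all probe sets tested had an unadjusted p under 0.05, and 12.2% passed with the block. The 6 smooth muscle markers were all higher at 28 months (median 0.51, none passed, 1 at an unadjusted p under 0.05). The 5 endothelial markers had a median change of 0.10 and ranged from -1.03 for Flt1 and -1.01 for Kdr to 1.39 for Icam2, and none passed (3 at an unadjusted p under 0.05), while Icam2 passed with the block (adjusted p = 0.0379). The 7 fibroblast markers had a median of 0.01, and 1 of them passed, S100a4 at 1.64 (limma adjusted p = 0.0216), which is also made by other cells. In the fit with the fat score S100a4 was at 1.06 (limma adjusted p = 0.0894). There Col1a2 at -1.07 (adjusted p = 0.0278) and Col3a1 at -0.98 (adjusted p = 0.0358) passed as lower. Median changes were -0.04 for macrophages, 0.03 for nerve, -0.43 for red blood cells and -0.42 for striated muscle. No marker of these lists passed with or without the block (0 at an unadjusted p under 0.05). With the fat score in the fit Ckm, of striated muscle, passed as lower at -1.48 (limma adjusted p = 0.046). The part of these cell types in the results was not tested. The 4 arrays of a replicate number, 1 of every age, were taken as a hybridisation run. Replicates 1 and 2 were on the first day and replicates 3 and 4 on the second. Replicates 1 and 2 each had a chip lot of their own, and replicates 3 and 4 shared another. Run and day therefore cannot be told apart from chip lot, except for replicate 3 against replicate 4. The beta-actin 3'/5' ratio, a measure of intact RNA, reached 3.20 for the 15-month and 3.82 for the 28-month array of the last run, while elsewhere it lay between 1.24 and 1.77.

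In the oldest aortas the taurine transporter Slc6a6 and the creatine transporter Slc6a8 had higher means. The organic cation transporter Slc22a3, the lactate carrier Slc16a1, the fatty acid carriers Slc27a1 and Slc27a2 and the chloride carrier Slc12a2 had lower means. Each of these differences was smaller once the fat score entered the fit. Only Slc6a6 and 1 probe set of Slc22a3 passed at 28 against 3 months without the runs as a block. Other carriers of lactate had higher means without a call in this comparison. Slc16a3 was at 9.96 against 9.43 in the 3-month rats, and Slc16a7 at 8.53 against 8.46. Of the other chloride carriers Slc12a4 had higher means and Slc12a7 a lower one, also without a call there. At 28 against 3 months 2 of the 65 members passed the threshold (limma, adjusted p under 0.05 over all 5250 probe sets tested), which is 3.08% of the members against 1.28% of all probe sets tested. They were Slc6a6, which rose (as did 1.05% of all), and the brighter probe set of Slc22a3, which fell (as did 0.229%). With the replicate block, which compares the ages within each hybridisation run, 9 members of 8 genes passed, which is 13.8% against 12.2% of all probe sets. Of these 2 were higher and 7 lower, against 6.53% and 5.7% of all. At an unadjusted p under 0.05 there were 17 members (26.2%, against 22.4%). In a fit that held the fat score as a covariate 0 members passed, against 0.781% of all probe sets. There 8 members had an unadjusted p under 0.05 (12.3%, against 9.3% of all). Members with 4 arrays of one age all above the 4 of the other numbered 11, or 16.9% against 17.7% of all probe sets. They were 5 higher and 6 lower, against 10.4% and 7.3% of all. The members as a whole were thus called about as often as other probe sets. In all 32 members were higher and 33 lower at 28 months, with a median log2 change of -0.01, against 0.06 over all probe sets tested. A change under 0.5 in size was found for 38 members (58.5%, against 65.5% of all).

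**Figure D1:**
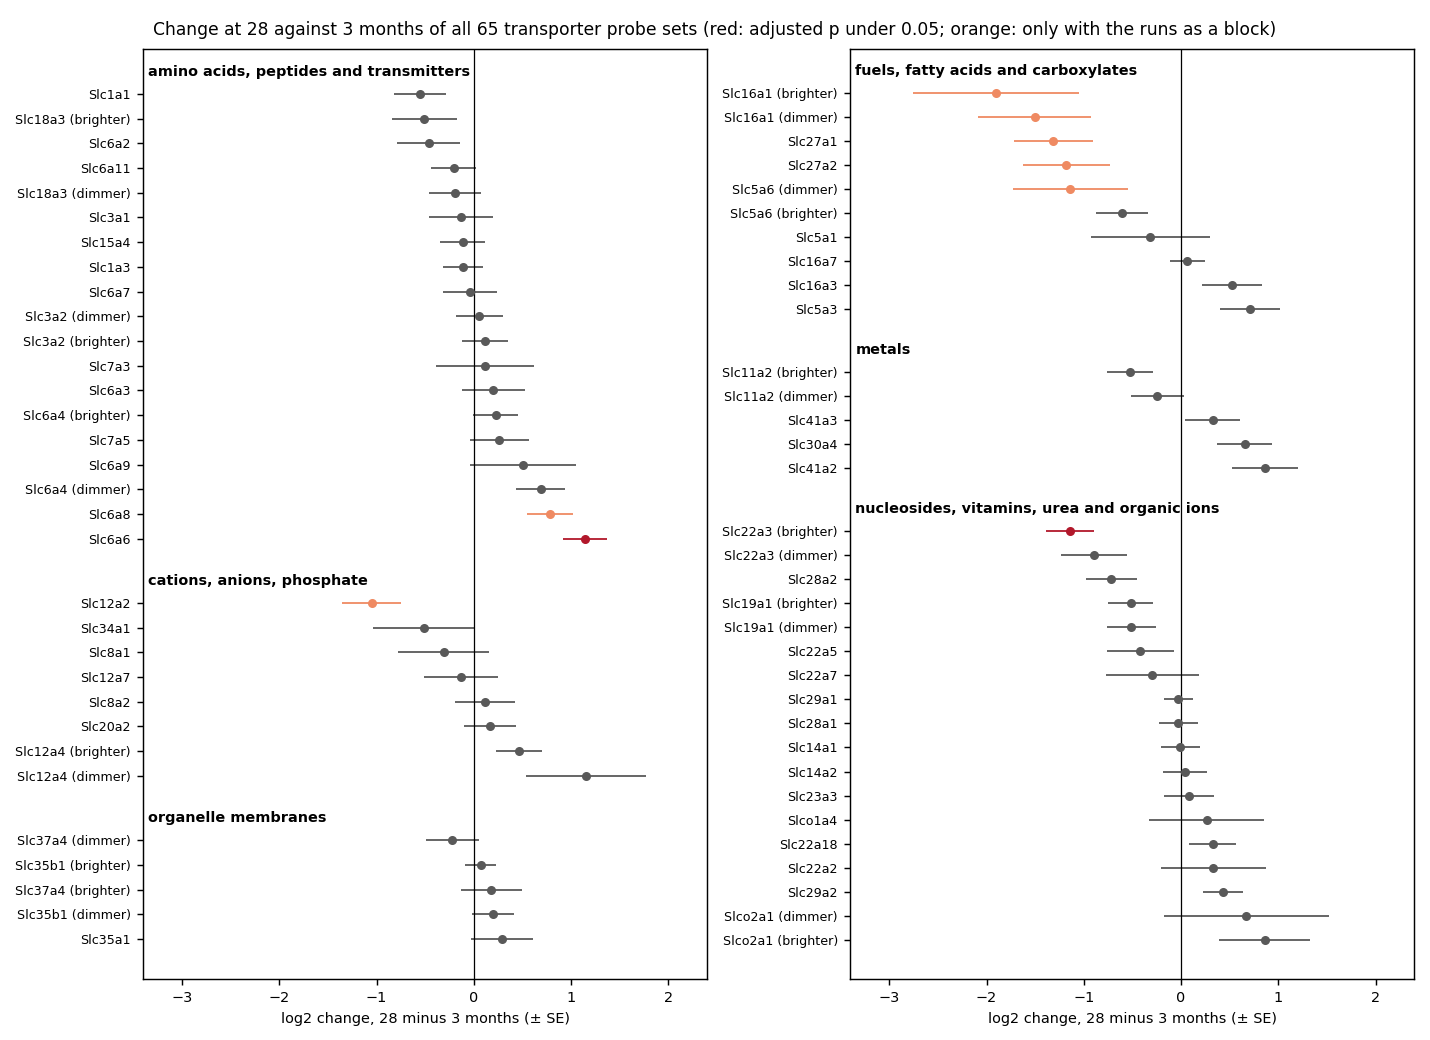
Log2 change at 28 against 3 months (horizontal axis, ± standard error) of the 65 transporter probe sets, grouped by family; red marks the 2 past the threshold and orange the 7 that passed only with the runs as a block. Of the 9 coloured probe sets 7 lie left of 0, 5 of them in the group of fuels, fatty acids and carboxylates.

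Promoters of 4 of these genes are printed because the results below turn on them: a transporter that rose, a transporter that fell, and a fatty acid and a lactate carrier that passed with the replicate block. Each is the 250 bases before the annotated start in RefSeq, build GRCr8, on the plus strand. Capitals mark a match to AGGTCA, a site of nuclear receptors (TGACCT on the other strand), or to CACGTG, the E-box.
Slc6a6, chr4:125752252-125752501: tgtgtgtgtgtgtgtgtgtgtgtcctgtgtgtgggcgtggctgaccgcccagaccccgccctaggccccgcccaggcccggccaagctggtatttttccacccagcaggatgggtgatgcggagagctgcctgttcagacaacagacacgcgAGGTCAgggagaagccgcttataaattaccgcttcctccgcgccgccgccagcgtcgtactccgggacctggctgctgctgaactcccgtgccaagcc
Slc22a3, chr1:50782968-50783217: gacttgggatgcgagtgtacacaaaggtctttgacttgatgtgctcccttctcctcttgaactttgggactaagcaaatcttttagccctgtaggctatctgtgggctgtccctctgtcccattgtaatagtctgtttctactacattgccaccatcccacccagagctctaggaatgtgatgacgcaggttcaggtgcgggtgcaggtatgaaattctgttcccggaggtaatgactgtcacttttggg
Slc27a1, chr16:18312717-18312966: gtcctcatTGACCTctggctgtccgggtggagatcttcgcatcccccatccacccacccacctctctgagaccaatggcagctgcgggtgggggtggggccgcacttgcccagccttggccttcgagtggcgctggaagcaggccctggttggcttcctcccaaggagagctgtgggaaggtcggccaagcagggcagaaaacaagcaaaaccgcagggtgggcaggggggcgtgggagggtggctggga
Slc16a1, chr2:194812410-194812659: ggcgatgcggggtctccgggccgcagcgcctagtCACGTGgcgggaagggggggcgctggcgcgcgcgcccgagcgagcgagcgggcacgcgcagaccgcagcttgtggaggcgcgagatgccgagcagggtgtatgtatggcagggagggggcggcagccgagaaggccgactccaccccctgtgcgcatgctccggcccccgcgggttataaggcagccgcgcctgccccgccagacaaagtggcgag
The search covered both strands. AGGTCA stood in the windows of Slc6a6 and Slc27a1, CACGTG in that of Slc16a1, and no searched motif in that of Slc22a3. Promoters were given for 47 of the 53 member genes, with 54 windows. AGGTCA was in 16.7% of these windows and in 14.1% of all 33469 promoters in the table, CACGTG in 14.8% and 5.59%, and TGATGNAA, the core of the amino acid response element, in 3.7% and 3.4%. The direct repeat of AGGTCA with 1 base between its copies, which holds that motif within it, was in 0 member windows and in 0.0508% of all. A match in these windows is a description of letters and not evidence of binding.

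Among the carriers of amino acids and their relatives, Slc6a6, the sodium- and chloride-coupled taurine transporter that serves cell volume control, rose with age. Its log2 levels on replicates 1 to 4 were 9.10, 9.82, 9.17 and 9.32 at 3 months and 9.14, 9.17, 9.42 and 9.87 at 6 months. They were 9.72, 10.21, 10.46 and 10.17 at 15 months and 10.38, 10.22, 10.56 and 10.80 at 28 months. All 4 arrays at 28 months were above all arrays at 3 and 6 months, while the 15-month arrays overlapped with both younger ages and with the oldest. The means went from 9.35 ± 0.32 (SD, n = 4) at 3 months to 10.49 ± 0.25 at 28 months, a 2.20-fold rise (log2 change 1.14, SE 0.22, limma adjusted p = 0.0199, 95% interval 0.67 to 1.61). Slc6a6 was also the only member past the threshold in the F test over the 4 ages (adjusted p = 0.0435). The change was 0.84 on day 1 and 1.44 on day 2. Adding the fat score to the fit gave 0.86 (SE 0.22, adjusted p = 0.106). The call was lost without replicate 1 (adjusted p = 0.074) or 3 (0.0632) at 3 months and without replicate 1 (0.0653), 3 (0.0574) or 4 (0.0608) at 28 months.

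Slc6a8, the creatine transporter that supplies muscle with its phosphate store, had the next largest difference in this group. Its log2 levels on replicates 1 to 4 were 9.34, 9.94, 9.53 and 9.82 at 3 months, 9.42, 9.45, 9.76 and 10.09 at 6 months, 10.07, 9.61, 10.63 and 10.49 at 15 months, and 10.21, 10.67, 10.42 and 10.47 at 28 months. The 28-month arrays lay above all arrays at 3 and 6 months. The change was 0.78 (SE 0.23, limma adjusted p = 0.0966), and with the replicate block the adjusted p was 0.0334. Beside the fat score in the fit the change was 0.40 (adjusted p = 0.56). Slc6a4, the serotonin transporter that clears this vasoconstrictor amine, had both its probe sets higher on all 4 arrays at 28 months than on any at 3 months. Its changes were 0.22 (adjusted p = 0.598) and 0.68 (adjusted p = 0.156), so neither passed. In the fit with the fat score they were -0.0846 and 0.37.

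The other members of this group had no call. Slc3a2, the heavy chain that brings several amino acid exchangers to the cell surface, had the highest mean signal here. Its brighter probe set was at 10.94, 10.95, 11.02 and 10.65 at 3 months, 10.57, 10.48, 10.39 and 11.21 at 6 months, 10.95, 10.60, 11.20 and 11.28 at 15 months, and 11.05, 10.45, 11.03 and 11.49 at 28 months. Its dimmer probe set was at 10.55, 10.67, 10.77 and 10.53 at 3 months, 10.12, 10.80, 10.77 and 10.30 at 6 months, 10.67, 11.14, 10.38 and 10.44 at 15 months, and 11.20, 10.88, 10.49 and 10.15 at 28 months. The ages overlapped on both. The changes at 28 months were 0.11 (95% interval -0.39 to 0.62) and 0.05 (-0.46 to 0.56), which turned to -0.19 on the brighter with the fat score as a covariate. Slc7a5, the large neutral amino acid transporter that pairs with Slc3a2, was at 0.26 (adjusted p = 0.638), or -0.36 beside the fat score. Over the group 10 probe sets were higher and 9 lower, with a median change of 0.05, and 1 passed. The median in the fit with the fat score was -0.29.

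**Figure D2:**
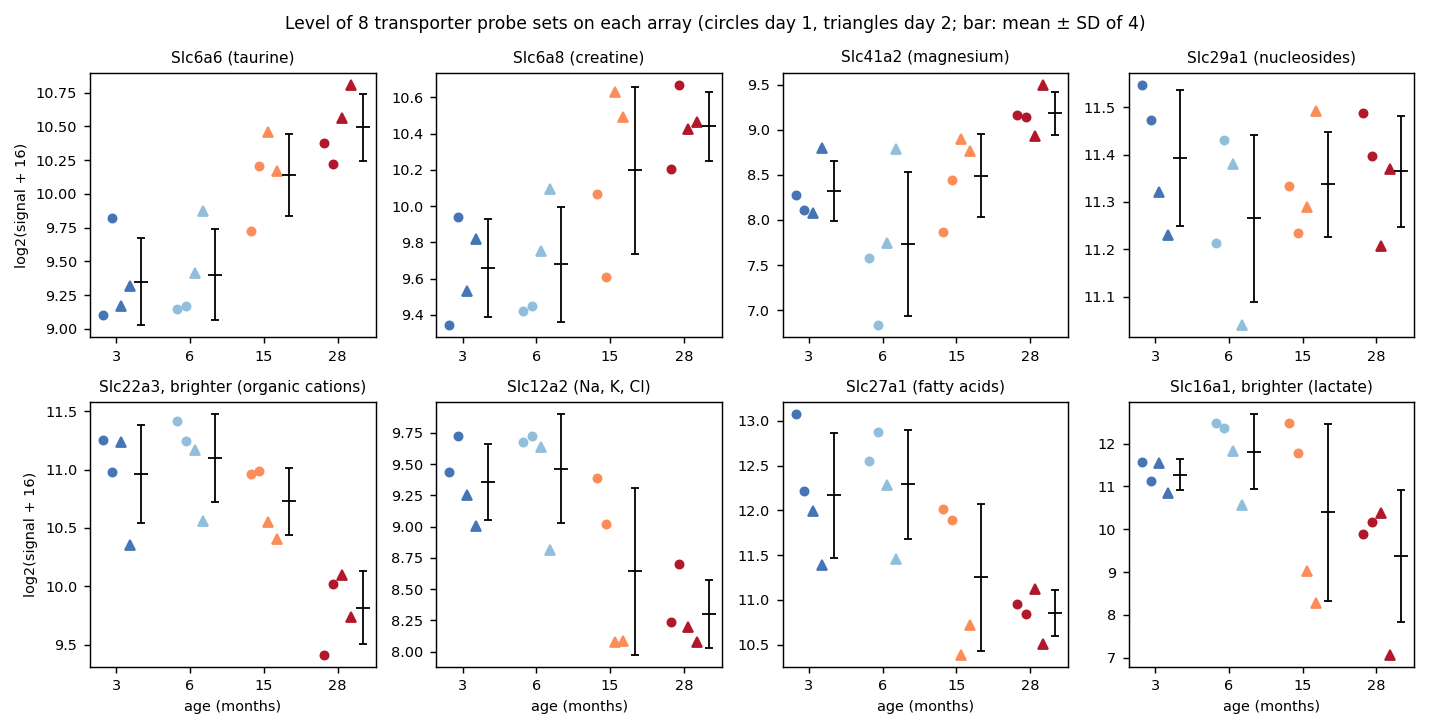
Log2(signal + 16) of 8 transporter probe sets on each of the 16 arrays by age in months, with circles for day 1, triangles for day 2 and bars for the mean ± SD of 4 arrays. Slc6a6 runs from 9.35 at 3 months to 10.49 at 28 months, Slc29a1 stays between 11.04 and 11.55, and at 15 months the day 2 arrays of Slc16a1, 9.02 and 8.28, lie below the day 1 arrays, 12.49 and 11.79.

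Among the carriers of organic ions and nucleosides, Slc22a3 fell. It is the organic cation transporter that takes up noradrenaline and other amines outside nerve endings. On its brighter probe set replicates 1 to 4 were at 11.26, 10.98, 11.24 and 10.36 at 3 months and 11.42, 11.25, 11.17 and 10.56 at 6 months. They were at 10.96, 10.99, 10.55 and 10.41 at 15 months and 9.41, 10.02, 10.10 and 9.74 at 28 months. All 28-month arrays were below every array of the 3 younger ages. The log2 change from 3 to 28 months was -1.14 (SE 0.25, limma adjusted p = 0.0334), from 10.96 ± 0.42 to 9.82 ± 0.31 (SD, n = 4), or 2.21-fold lower. From 15 to 28 months it was -0.91, with an adjusted p of 0.967 in that comparison, and from 3 to 15 months the ranges overlapped. The change at 28 against 3 months was -1.40 on day 1, -0.88 on day 2, and -0.75 (SE 0.22, adjusted p = 0.17) in the fit with the fat score. The call was lost without replicate 1 (0.134), 2 (0.09) or 3 (0.111) at 3 months, replicate 3 (0.0505) at 6 months, and each of replicates 1 to 4 at 28 months (0.117, 0.0645, 0.0542 and 0.0874).

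The dimmer probe set of Slc22a3 was designed on the same target sequence. Its levels were 8.28, 8.39, 8.86 and 7.81 at 3 months, 8.51, 8.85, 8.65 and 8.31 at 6 months, 8.39, 8.60, 7.70 and 8.08 at 15 months, and 6.94, 8.49, 7.50 and 6.84 at 28 months. On 3 of the oldest arrays it was lower than on any younger array, and on replicate 2 it was not. The change was -0.89 (SE 0.34, limma adjusted p = 0.162, with the replicate block 0.059), or -0.46 beside the fat score.

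Slc28a2, the sodium-coupled carrier of purine nucleosides such as adenosine, was at 9.20, 9.40, 9.35 and 9.32 at 3 months, 8.97, 9.47, 9.75 and 9.03 at 6 months, 8.98, 9.43, 8.38 and 8.49 at 15 months, and 8.86, 8.54, 8.94 and 8.06 at 28 months. The oldest arrays were all below the youngest (log2 change -0.72, SE 0.26, limma adjusted p = 0.154), and beside the fat score the change was -0.31. Slc29a1, the equilibrative carrier through which adenosine leaves and enters cells, had the highest mean signal of this group and hardly varied. It was at 11.55, 11.47, 11.32 and 11.23 at 3 months, 11.21, 11.43, 11.38 and 11.04 at 6 months, 11.33, 11.23, 11.29 and 11.49 at 15 months, and 11.49, 11.40, 11.21 and 11.37 at 28 months. All 4 ages overlapped. Its change at 28 months was -0.03, with a 95% interval of -0.34 to 0.29. Slco2a1, the prostaglandin transporter, had changes of 0.86 (adjusted p = 0.289) and 0.67 (adjusted p = 0.666) on its probe sets, which with the fat score as a covariate were 1.56 (adjusted p = 0.17) and 2.08 (adjusted p = 0.332). Both probe sets of Slc19a1, the reduced folate carrier, were at -0.52 and -0.51 (adjusted p = 0.205 and 0.239), and at -0.42 and -0.10 beside the fat score. Over the group 8 probe sets were higher and 10 lower (median -0.02), and 1 passed.

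Carriers of fuels, fatty acids and carboxylates were the group with the lowest median change, -0.87, with 7 of 10 probe sets lower at 28 months. None passed at 28 against 3 months in limma (6 at an unadjusted p under 0.05, against 22.4% of all probe sets). With the replicate block 5 passed as lower, against 5.7% of all. They were both probe sets of Slc16a1, Slc27a1, Slc27a2 and the dimmer probe set of the vitamin carrier Slc5a6. Once the fat score entered the fit the median was -0.09. Slc27a1, a fatty acid transport protein of muscle and fat, was at 13.07, 12.22, 12.00 and 11.39 at 3 months, 12.55, 12.88, 12.28 and 11.45 at 6 months, 12.01, 11.90, 10.39 and 10.72 at 15 months, and 10.95, 10.84, 11.12 and 10.51 at 28 months. All 28-month arrays were below all arrays at 3 and 6 months, and the day 2 arrays at 15 months were below 3 of the 4 oldest. The means went from 12.17 ± 0.70 to 10.85 ± 0.26 (log2 change -1.31, SE 0.41, limma adjusted p = 0.109, with the replicate block 0.0152). Adding the fat score to the fit gave -0.45 (adjusted p = 0.605).

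Slc27a2, its relative that also activates very long chain fatty acids, was at 11.01, 10.45, 9.47 and 9.82 at 3 months, 10.96, 10.61, 10.37 and 9.73 at 6 months, 9.77, 9.53, 8.29 and 8.03 at 15 months, and 8.38, 9.79, 9.38 and 8.48 at 28 months. The ranges at 3 and 28 months overlapped on replicate 2 of the oldest (log2 change -1.18, SE 0.45, limma adjusted p = 0.162, with the replicate block 0.0414). Adding the fat score to the fit gave -0.32.

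Slc16a1, the proton-coupled lactate and ketone body carrier MCT1, had the lowest change of all members. Its brighter probe set was at 11.58, 11.13, 11.55 and 10.84 at 3 months, 12.47, 12.37, 11.82 and 10.57 at 6 months, 12.49, 11.79, 9.02 and 8.28 at 15 months, and 9.88, 10.16, 10.37 and 7.08 at 28 months. Its dimmer probe set was at 10.76, 10.04, 10.42 and 9.55, then 10.70, 10.89, 10.34 and 9.14, then 10.92, 10.31, 7.92 and 8.14, and at 28 months 8.75, 8.46, 9.32 and 8.21. On both, the 28-month arrays were all below the 3-month arrays, and the 15-month arrays split by day as the fat score did. The log2 changes were -1.90 (SE 0.85, limma adjusted p = 0.206, with the replicate block 0.0475) and -1.50 (SE 0.58, adjusted p = 0.164, with the block 0.0487). Beside the fat score in the fit they were 0.14 (adjusted p = 0.93) and -0.12 (adjusted p = 0.925).

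Slc5a6, the sodium-coupled carrier of biotin and pantothenate, had changes of -0.61 (SE 0.27, limma adjusted p = 0.199) and -1.14 (SE 0.59, adjusted p = 0.265, with the replicate block 0.0333). The dimmer probe set was at 10.29, 10.17, 9.93 and 8.75 at 3 months, 9.98, 10.02, 9.69 and 8.63 at 6 months, 9.79, 9.83, 7.93 and 7.07 at 15 months, and 8.60, 9.52, 8.98 and 7.47 at 28 months. The brighter was at 11.23, 10.83, 11.11 and 10.18, then 10.90, 11.08, 10.79 and 10.36, then 10.78, 10.80, 9.96 and 9.91, and at 28 months 10.30, 10.19, 10.41 and 10.03. The oldest and youngest overlapped on both, and replicate 4 was the lowest array at every age on both. Adding the fat score took the dimmer to 0.25 and the brighter to -0.0698. The members of the group that were higher at 28 months were Slc16a3, the lactate exporter of glycolytic cells (0.53, adjusted p = 0.316), Slc16a7 (0.0642) and Slc5a3, which carries the osmolyte myo-inositol (0.71, adjusted p = 0.199). Beside the fat score these were 0.0245, -0.12 and 0.75.

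**Figure D3:**
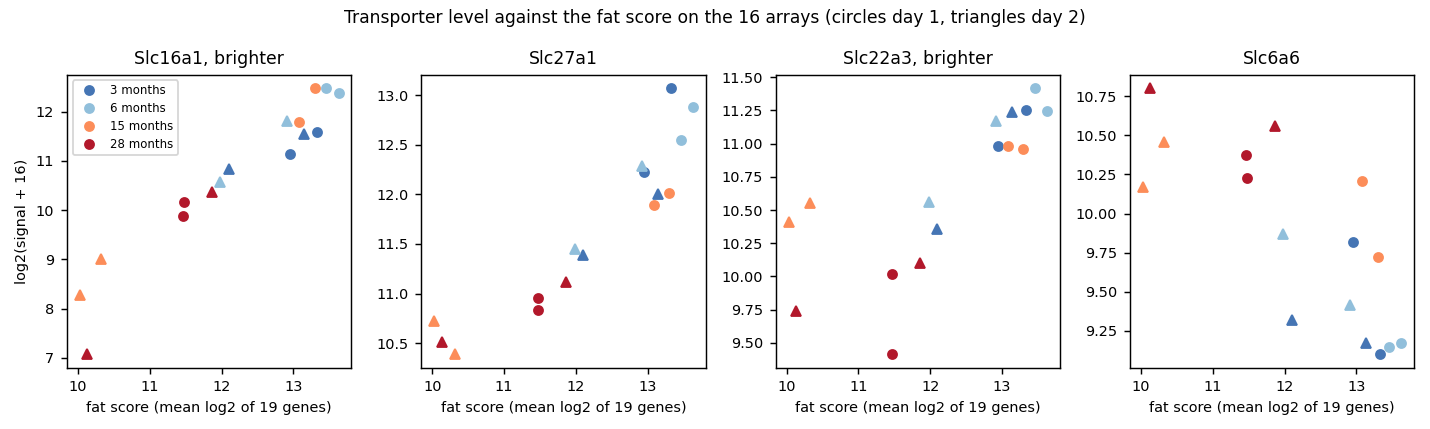
Log2(signal + 16) of 4 transporter probe sets (vertical axes) against the fat score, the mean log2 level of 19 adipocyte markers (horizontal axes), on the 16 arrays, coloured by age. Slc16a1 and Slc27a1 are low on the arrays with a low score at both older ages. Slc22a3 is lowest on the array with the lowest score at 3 months (10.36), 6 months (10.56) and 15 months (10.41), although that 15-month array is still above the 4 arrays at 28 months. At 28 months Slc22a3 is lowest on replicate 1 and not on the array with the lowest score. The array with the lowest score is replicate 4 at every age, so score and run cannot be told apart there.

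Of the carriers of inorganic ions, Slc12a2, the sodium, potassium and chloride cotransporter NKCC1 that loads smooth muscle with chloride, was lower in the oldest rats. It was at 9.44, 9.72, 9.25 and 9.00 at 3 months, 9.67, 9.72, 9.64 and 8.81 at 6 months, 9.39, 9.02, 8.08 and 8.09 at 15 months, and 8.24, 8.70, 8.20 and 8.08 at 28 months. All 28-month arrays were below all arrays at 3 and 6 months. The log2 change was -1.05 (SE 0.30, limma adjusted p = 0.0882, with the replicate block 0.0138). It was -0.45 (adjusted p = 0.56) once the fat score entered the fit. Its relatives that export potassium and chloride were at 0.47 and 1.15 for the probe sets of Slc12a4 (adjusted p = 0.254 and 0.279, the latter with replicate 1 at 3 months at 5.85) and at -0.14 for Slc12a7. Beside the fat score these were 0.0755, 0.33 and 0.55. Slc8a1, the sodium and calcium exchanger, was at -0.31 (adjusted p = 0.728) on its only member probe set, or 0.0417 beside the fat score. Its probe sets below the limit went in both directions. Slc20a2, a phosphate carrier, had the highest mean signal of the group and was at 10.22, 10.34, 9.64 and 10.31 at 3 months, 9.76, 9.42, 9.94 and 10.23 at 6 months, 9.72, 10.16, 10.71 and 10.25 at 15 months, and 10.38, 10.86, 10.22 and 9.71 at 28 months. Its ages overlapped (change 0.16, 95% interval -0.41 to 0.74). Over the group 4 probe sets were higher and 4 lower, and 0 passed (1 at an unadjusted p under 0.05, against 22.4% of all).

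Among the metal carriers, Slc41a2, a magnesium transporter, was at 8.28, 8.11, 8.07 and 8.80 at 3 months, 7.58, 6.83, 7.74 and 8.78 at 6 months, 7.87, 8.44, 8.89 and 8.76 at 15 months, and 9.17, 9.14, 8.92 and 9.49 at 28 months. The oldest arrays were above all arrays of the other ages. The log2 change at 28 against 3 months was 0.86 (SE 0.34, limma adjusted p = 0.17), or 0.28 once the fat score entered the fit. Slc11a2, the transporter of ferrous iron, had changes of -0.52 (adjusted p = 0.208) and -0.24 (adjusted p = 0.632), or -0.20 and 0.0927 beside the fat score. Its brighter probe set was at 10.49, 10.23, 9.77 and 9.96 at 3 months, 10.00, 10.14, 10.22 and 9.84 at 6 months, 10.38, 10.53, 9.55 and 9.68 at 15 months, and 9.65, 9.23, 9.63 and 9.85 at 28 months. Its dimmer was at 8.62, 7.60, 8.66 and 8.06, then 7.90, 8.41, 8.54 and 8.03, then 8.68, 8.58, 7.76 and 7.95, and at 28 months 7.91, 8.04, 7.96 and 8.06. The youngest and oldest overlapped on both. Slc30a4, which moves zinc out of the cytosol, was at 0.65 (adjusted p = 0.197), or 0.20 beside the fat score. None of the 5 metal probe sets passed (3 at an unadjusted p under 0.05, against 22.4% of all), and their median change was 0.32.

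The organelle carriers were the group with the smallest range of changes, from -0.22 to 0.29, and none passed (0 at an unadjusted p under 0.05). Slc35b1, an ATP and ADP exchanger of the endoplasmic reticulum, had a brighter probe set at 11.40, 11.43, 11.12 and 11.50 at 3 months, 11.38, 11.29, 11.39 and 11.46 at 6 months, 11.26, 11.16, 11.65 and 11.32 at 15 months, and 11.45, 11.18, 11.51 and 11.58 at 28 months. Its dimmer was at 9.95, 9.68, 10.23 and 10.38, then 10.39, 10.12, 10.26 and 10.04, then 9.68, 9.68, 10.54 and 9.99, and at 28 months 10.49, 9.93, 10.48 and 10.14. All ages overlapped, with changes of 0.07 (95% interval -0.26 to 0.40) and 0.20 (-0.27 to 0.66). The probe sets of Slc37a4, the glucose 6-phosphate transporter, were at 0.18 and -0.22, or 0.66 and 0.35 beside the fat score. In the fit without the score it was the only one of the 12 genes with 2 member probe sets whose changes differed in sign, although its probe sets share a target sequence.

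A slope per month of age used all 16 arrays at once. It passed for 10 members of 9 genes, or 15.4% against 13.3% of all probe sets tested. Of these 3 were rising and 7 falling, against 7.41% and 5.89% of all. With the replicate block 17 members of 14 genes passed, including all 10, against 25.2% of all. The rises were those of Slc6a6 (1.21 in log2 over the span from 3 to 28 months, limma adjusted p = 0.00326), Slc6a8 (0.84, adjusted p = 0.0213) and Slc41a2 (1.15, adjusted p = 0.0361). The falls were those of the brighter Slc22a3 probe set (-1.23, adjusted p = 0.00547), Slc12a2 (-1.19, adjusted p = 0.0168), Slc27a1 (-1.48, adjusted p = 0.0221), Slc28a2 (-0.77, adjusted p = 0.0378), the dimmer Slc22a3 probe set (-1.02, adjusted p = 0.0399), the dimmer Slc16a1 probe set (-1.64, adjusted p = 0.0433) and Slc27a2 (-1.45, adjusted p = 0.0444). The block added both probe sets of Slc5a6 (0.0148 and 0.0115), the brighter Slc16a1 (0.00732) and Slc12a4 (0.0271) probe sets, the dimmer Slc19a1 (0.0402), Slc29a2 (0.0427), a nucleoside carrier, and Slc30a4 (0.0399). In the fit with the fat score 0 slopes passed, against 0.59% of all probe sets, and that of Slc6a6 had an adjusted p of 0.0698. The slopes of Slc6a6 and of the brighter Slc22a3 probe set passed whichever of the 16 arrays was left out. That of Slc12a2 was lost without replicate 4 at 28 months (adjusted p = 0.0507), that of Slc27a1 without the same array (0.0646), and that of Slc6a8 without it or replicate 2 at 28 months (from 0.0532 to 0.0549). Those of the other 5 probe sets passed in 7 or 8 of the 16 leave-outs.

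The other comparisons of 2 ages had few differences. At 15 against 3 months 0 members passed (limma, against 0.0952% of all probe sets), 5 had an unadjusted p under 0.05 (7.69%, against 7.09%) and 0 had groups that did not overlap (against 2.97%). The 5 were Slc6a6 at 0.79 (adjusted p = 0.407), Slc6a8 at 0.54, Slc12a2 at -0.71, Slc27a1 at -0.92 and Slc27a2 at -1.28. At 6 against 3 months 0 members passed, as did 0 of all probe sets, and 1 had an unadjusted p under 0.05, against 2.88% of all (Slc6a11, a GABA transporter, at -0.67). For 1 member the groups of these ages did not overlap (1.54%, against 1.6% of all). At 28 against 15 months 0 members passed, again as for all probe sets, and 2 had an unadjusted p under 0.05, against 3.52% of all, both of them probe sets of Slc22a3. The groups did not overlap for 3 members there, against 1.96% of all, namely Slc1a1, a glutamate transporter, at -0.49, the brighter Slc22a3 probe set at -0.91 and Slc41a2 at 0.69. In the F test over the 4 ages 1 member passed (against 0.648% of all), and with the replicate block 6 passed, against 5.92%. The block added the brighter Slc22a3 probe set (adjusted p = 0.0139), Slc12a2 (0.0225), Slc27a1 (0.0233), Slc27a2 (0.0306) and Slc41a2 (0.0386).

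The share of the difference that went with the fat score varied between members. The 7 probe sets whose change at 28 months was -1 or lower came from 6 genes and had a median change of -1.18. In the fit with the fat score their median was -0.32, ranging from -0.75 for the brighter Slc22a3 probe set to 0.25 for the dimmer Slc5a6 probe set. The direction differed between the fits for 23 of the 65 members. The score itself was lower at the older ages, so a term for it also takes up part of any difference between ages, and the part of fat cells in these results was not tested.

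**Figure D4:**
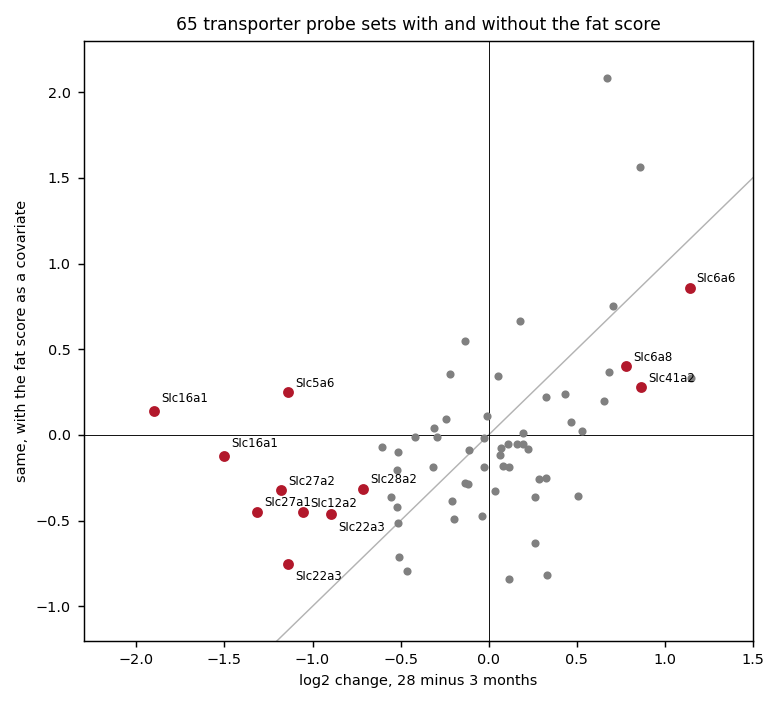
Log2 change at 28 against 3 months of the 65 transporter probe sets without (horizontal axis) and with (vertical axis) the fat score as a covariate; red marks the members past the threshold in slope or, with the runs as a block, at 28 against 3 months, and the line marks equal values. Slc6a6 at 1.14 and 0.86 and the brighter Slc22a3 at -1.14 and -0.75 lie nearest to the line among the labelled changes past 1 in size, while Slc16a1 and Slc5a6 lie near 0 on the vertical axis.

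Genes that work with the transporters were described from lists written for them. Of the sodium pump and its regulators 5 were measured, 3 higher and 2 lower at 28 months, and 0 passed with or without the replicate block (limma, 0 at an unadjusted p under 0.05). They ranged from -0.21 for the subunit Atp1b2 to 0.52 for Atp1b1. Of 8 partners and regulators 3 were higher and 5 lower, and 0 passed (1 at an unadjusted p under 0.05). Bsg, basigin, which brings Slc16a1 to the cell surface, was at -0.56 (limma adjusted p = 0.223, with the block 0.0439), and Stk39, a kinase that activates Slc12a2, was at -0.98 (adjusted p = 0.155). Beside the fat score they were at -0.0702 and -0.52. Of 7 genes of the amino acid stress response, which controls several amino acid carriers, 2 were higher and 5 lower, and 0 passed (3 at an unadjusted p under 0.05). With the block Phgdh, of serine synthesis, at -1.10 (0.0264) and the factor Cebpb at -1.38 (0.00583) passed. Cebpb is also a gene of fat cell differentiation. Beside the fat score Phgdh was at -0.35 (adjusted p = 0.578) and Cebpb at -0.76 (adjusted p = 0.34). The family of ABC transporters holds pumps that use ATP directly and also channel subunits such as Abcc9. Of 7 of its genes 4 were higher and 3 lower, and 0 passed (3 at an unadjusted p under 0.05). With the block Abcd3, which brings fatty acids into peroxisomes, passed at -0.65 (0.0257), and beside the fat score it was at -0.10 (adjusted p = 0.925). Abcc9, the sulfonylurea receptor of vascular potassium channels, was at 0.55 (adjusted p = 0.162), or 0.30 beside the fat score. Abcc1 had the highest change of this list, 0.94 (limma adjusted p = 0.183), or 0.30 beside the fat score. Abcc8, with a mean log2 level of 7.94, was at 0.22 (limma adjusted p = 0.904). Beside the fat score it was at 2.25 and passed (adjusted p = 0.0177).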

How the data were processed

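RNA of 16 rat aortas was hybridised to 1 Affymetrix array each (RG_U34A). The authors deposited 1 table of intensity values, a linear signal per probe set and array, made with MAS5 per the submitters' processing notes. Its version and settings were not named there. Scaling had been done before deposit: the mean trimmed by 2% was 1002 on every array, and median signals ran from 223.5 to 267.7. The deposited array records (text of type other, with no score) gave the rat, chip lot and hybridisation day. On 4 arrays of the older ages they held a note on 10 ug of cRNA, of unstated meaning. They name 16 different rats, so replicates were separate animals.

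Values were taken as log2(signal + 16), which understates the change of dim probe sets. Of 8799 probe sets, 59 controls and those with a mean under the 40th percentile (7.31) were left out, and 5250 were tested. 1 limma model (version 3.58.1, R 4.3.3) held the 16 arrays (lmFit, eBayes with a mean trend; 1 mean per age, 12 residual degrees of freedom), with Benjamini-Hochberg adjustment over all 5250. Tests were 2-sided. The number of arrays limits the precision. Symbols came from the platform annotation, and all 65 members were found in the RefSeq gene table (GRCr8) by gene identifier. The procedure was tested on simulated data.

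A replicate number was taken as a hybridisation run, and every number held all 4 ages, so the block compares ages within a number. Replicates 3 and 4 shared both day and chip lot. Deviations from the age means correlated with a median of 0.171 over 24 same-run pairs (from -0.31 to 0.63, 13 over 0.1) and -0.034 over others. The replicate block is given beside a result where it changes a call. Fat score, day, cRNA note, weights, filters, pseudocount, quantile normalization and left-out arrays were the alternatives.

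Every array's value is given for members past the threshold in any comparison or, with the block, at 28 against 3 months, and for the member with the highest mean of each group, with all member probe sets of those genes. The members and all gene lists were chosen with earlier results of these data known.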

Additional observations from a re-analysis of the deposited data

Results flagged for a closer look

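Among the 21 probe sets whose values are given on every array, 84 groups of 4 arrays were examined for an array far from the other 3, and 2 such arrays were found; Dixon's criterion picks about 5% of groups by chance. Slc12a2 at 6 months was at 8.81 on replicate 4, against 9.64 to 9.72 on the other arrays of that age. The fat score of that array was 11.98, the lowest at 6 months. The brighter probe set of Slc16a1 at 28 months was at 7.08 on replicate 4, against 9.88 to 10.37 on the others. That array had the lowest fat score at 28 months, 10.13, and a beta-actin 3' to 5' ratio of 3.82. The part of either in the low value was not tested.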

How the results depend on the processing

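At 28 against 3 months 2 members passed, and the count was 9 with the replicate block, 12 with array weights, 7 with only the 8 arrays of both ages, 6 with day as a block, 11 on day 1, and 0 on day 2, with the fat score alone or beside the block, with the cRNA note, or without both arrays with a high beta-actin ratio. In the F test, with 1 call, these settings gave 6, 12, no value, 5, 10 and 0, against 0 with no filter and 2 with a filter at the 60th percentile. For the slope, with 10 calls, they gave 17, 22, no value, 18, 11 and 0, except 3 with the cRNA note and 4 without both high-ratio arrays, and 5 with no filter. At 28 against 15 months day 1 gave 5 against 0, or 7.69% of the members against 9.81% of all probe sets tested. The other day 1 counts were 16.9% against 13.3% at 28 against 3 months, 15.4% against 13.9% in the F test and 16.9% against 15.5% for the slope. For settings with no share here or above, such as array weights and day as a block, the share of all probe sets was not counted. Their counts are therefore not read as a result about the transporters. Leaving out 1 array gave 0 to 2 calls at 28 against 3 months, 0 to 3 in the F test (0 in 12 of 16) and 2 to 15 for the slope, the lowest without replicate 4 of the oldest and the highest without replicate 4 of the youngest rats. At 15 and at 6 against 3 months every setting gave 0. Pseudocounts of 1 and 64 and quantile normalization moved no count by over 1.5 times. Apart from the calls already given, the replicate block changed no other call of a member in the comparisons run. Directions at 28 against 3 months turned as follows. With the fat score, the dimmer Slc11a2 was at 0.093, the brighter Slc16a1 at 0.14, Slc20a2 at -0.055, the brighter Slc35b1 at -0.079, the brighter Slc3a2 at -0.19 and the dimmer Slc5a6 at 0.25. With both the score and the block, the dimmer Slc11a2 was at 0.37, Slc16a1 at 0.0205 (brighter) and 0.0926 (dimmer, slope per month 0.0006), Slc20a2 at -0.39, Slc35b1 at -0.11 and -0.038 and the brighter Slc3a2 at -0.079. On day 1 the brighter Slc35b1 was at -0.10 and the brighter Slc3a2 at -0.19, on day 2 Slc20a2 was at -0.014, Slc29a1 at 0.012 and the dimmer Slc3a2 at -0.33, and without both high-ratio arrays the brighter Slc3a2 was at -0.047. Leaving out 1 array took Slc20a2 from -0.026 to 0.36, Slc29a1 from -0.082 to 0.025, the brighter Slc35b1 from -0.0093 to 0.15 and Slc3a2 from -0.047 to 0.30 (brighter) and -0.12 to 0.23 (dimmer). The causes were not tested.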
